A study of Homo sapiens with 4 samples.

Results

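The BCL2 family genes decide at the mitochondrial surface whether a stressed cell dies by apoptosis. Here 10 of its genes were taken by name from the deposited count table, which lists 37450 features. They were the BH3-only genes BMF, PMAIP1, BBC3, BCL2L11 and BID, the effectors BAX and BAK1, and the pro-survival genes MCL1, BCL2 and BCL2L1. All 10 were listed and all 10 passed the filter on low counts, as did 20999 features in all.

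The cells were 143B, an established human osteosarcoma line derived from HOS cells by Ki-ras transformation. On day 2 after lipid transfection, 2 libraries came from cells given siRNA against CBX3 (siCBX3, labelled CBX3 knockdown) and 2 from control cells, labelled siNC and WT. Medium with fetal bovine serum, penicillin and streptomycin and the RNAiMAX reagent were common to both groups. The number of siRNAs against CBX3 was not given, so effects of a single siRNA cannot be told apart from those of losing CBX3, which encodes the heterochromatin protein HP1γ. Nothing in the labels says that the 2 libraries of a group were separate cultures. The p-values then measure only the spread between these libraries, pooled in large part over all genes, and that spread may be technical.

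Total counts ran between 36509298 and 40336907 per library. CBX3 had 2020 and 2163 counts in siCBX3 and 20311 and 21384 in siNC, and its log2 fold change was -3.19 (SE 0.08, edgeR adjusted p 2.73e-20). The mesenchymal genes VIM and SPARC were abundant in every library, at 265 and 270 RPKM for VIM in siCBX3 against 127 and 153 in siNC. SPARC had 356 and 341 RPKM in siCBX3 against 74.7 and 61.5 in siNC, and the 7 mesenchymal markers summed to 654 and 645 RPKM in siCBX3 against 224 and 237 in siNC. Of the bone lineage genes, COL1A1 stood between 1.39 and 1.81 RPKM, RUNX2 had 167 to 228 counts, and the mineralization gene ALPL had at most 4 counts. Of the leukocyte markers, PTPRC and CD3E had at most 18 counts per library. CD68, which encodes a lysosomal protein also made outside leukocytes, carried nearly the whole sum of that list, which was 290.0 and 266 RPKM in siCBX3 and 198 and 189 RPKM in siNC. Endothelial markers summed to 0.185 to 0.263 RPKM. The sum of the 4 epithelial markers was 5.37 and 6.0 RPKM in siCBX3 and 7.68 and 7.92 RPKM in siNC. The part of these shifts in the results was not tested. In such bulk RNA, fewer cells with a transcript and less of it per cell cannot be told apart.

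As background, BH3-only proteins are the stress sensors of the family. They bind a groove on the pro-survival proteins, and some also switch on BAX and BAK1 directly. Active BAX and BAK1 form pores in the outer mitochondrial membrane and release cytochrome c, which starts the caspase cascade. The pro-survival proteins MCL1, BCL2 and BCL-XL, the long product of BCL2L1, hold both other groups in check. Much of this control acts on the proteins and is not seen in RNA.

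The element that all 10 share is the BH3 core, the helix by which these proteins grip one another. It was searched in 1 principal coding sequence per gene (GENCODE 29, GRCh38) as a leucine, any 3 residues, a glycine or alanine, and an aspartate. Every one of the 10 held exactly 1 match, whereas 24.8% of 19514 coding genes searched (4848) held at least 1. The match is thus no proof of a BH3 domain by itself. The coding strand of 9 codons from that leucine on is printed below, 27 bases each, with the codons of the glycine or alanine and the aspartate in capitals.

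BMF: cttcagtgcattGCAGACcagttccac
PMAIP1: ctcaggagatttGGAGACaaactgaac
BBC3: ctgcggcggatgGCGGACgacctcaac
BCL2L11: ttgcggcgtattGGAGACgagtttaac
BID: ctcgcccaggtcGGGGACagcatggac
BAX: ctcaagcgcatcGGGGACgaactggac
BAK1: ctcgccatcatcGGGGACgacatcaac
MCL1: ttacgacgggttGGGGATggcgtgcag
BCL2: ctccgccaggccGGCGACgacttctcc
BCL2L1: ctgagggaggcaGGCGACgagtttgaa

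The stretches of BMF and PMAIP1, the 2 members with the largest changes, lie at chr15:40104198-40104224 on the minus strand and chr18:59902673-59902699 on the plus strand, each within 1 coding exon. In BMF it covers codons 137 to 145 of 184, and in PMAIP1 codons 29 to 37 of 54, the shortest of the 10 coding sequences. BMF and BBC3 have an alanine codon ahead of the aspartate, and the other 8 have a glycine codon. The stretches of BBC3 (chr19:47226582-47226608), BID (chr22:17739418-17739444), BAK1 (chr6:33575390-33575416), MCL1 (chr1:150578868-150578894), BCL2 (chr18:63318352-63318378) and BCL2L1 (chr20:31721925-31721951) are on minus strands. Those of BCL2L11 (chr2:111150103-111150129) and BAX (chr19:48955787-48955813) are on plus strands.

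Depletion of CBX3 went with higher RNA of 6 of the 10 genes and with lower RNA of none. A gene was called when its Benjamini-Hochberg adjusted p over all 20999 tested features was under 0.05 in edgeR's quasi-likelihood test. Higher were BMF, PMAIP1, BAX, BBC3, BID and MCL1; BCL2L11, BCL2, BCL2L1 and BAK1 were not called. Over all tested features 48.4% were called, 24.4% higher and 24.0% lower, so the 60.0% of the 10 that were called lies not far above the background. The members were chosen with earlier results of these data known, so 6 higher and 0 lower is no evidence of a shared direction. With library totals in place of TMM factors, or with upper-quartile factors, 5 of the 10 were higher and 2 (BCL2L11 and BCL2L1) lower. The median log2 fold change of the 10 was 0.35, against -0.01 over all tested features. Levels of the 2 groups did not overlap for any of the 10, as for 73.9% of tested features in either direction. The siCBX3 libraries were above for 6 of the 10 and below for 4. BMF and PMAIP1 were the only members both called and changed by at least 1 on the log2 scale, which 12.8% of tested features were.

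**Figure D1:**
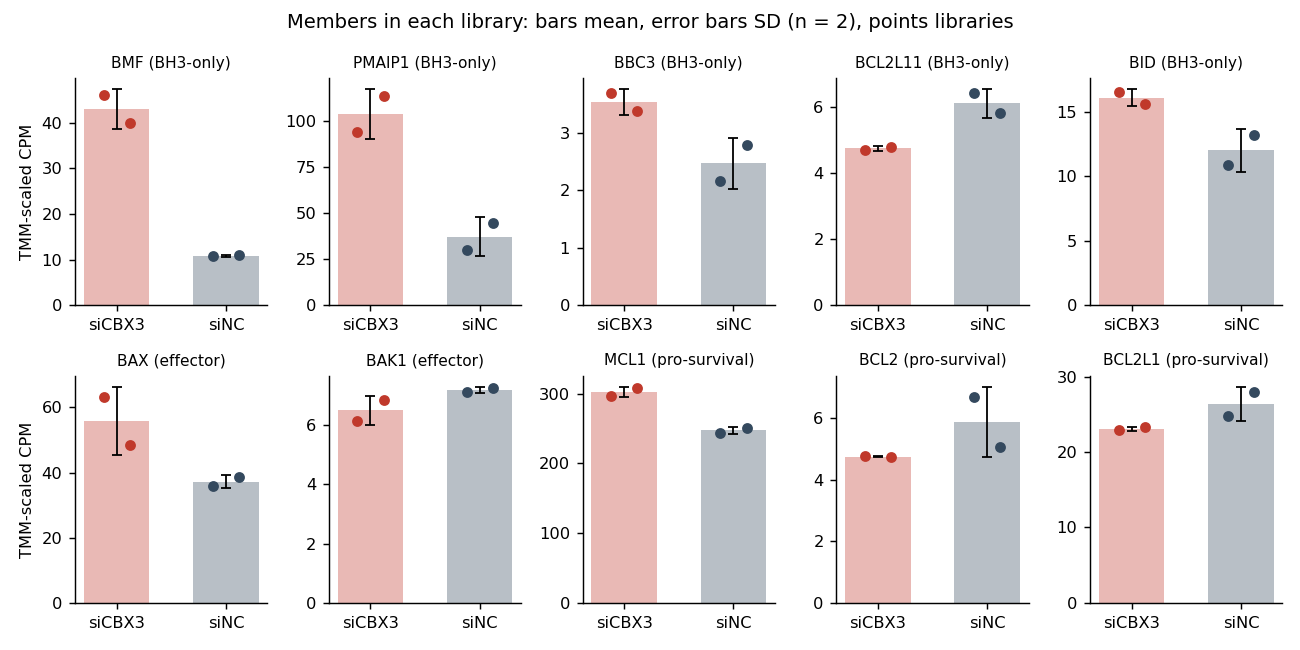
TMM-scaled CPM of the 10 genes in the siCBX3 (left) and siNC (right) libraries; bars are means, error bars SD over 2 libraries and points the libraries, and each panel has its own axis from 0. The siCBX3 libraries of BMF stand at 46.0 and 39.9 CPM against 10.7 and 11.04 CPM in siNC.

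BMF showed the largest change of the 5 BH3-only genes among the 10 members. Its protein is kept at the cytoskeleton by a dynein light chain, and it is known for its part in death after loss of anchorage. BMF had 46.0 and 39.9 TMM-scaled CPM in siCBX3, against 10.7 and 11.04 CPM in siNC. Both siCBX3 libraries lay far above both siNC libraries, which were within 1 CPM of each other. The fold change was 3.95 (log2 1.98, SE 0.10, edgeR adjusted p 4.22e-14), at the 98.3 percentile of all tested features. The gene spans 40087890 to 40108892 on the minus strand of chromosome 15. The antisense feature RP11-521C20.3 lies wholly within BMF exons, over 461 of 5447 exon bases. It had 118 and 131 counts in siCBX3 and 21 and 33 in siNC, at most 8.66% of the BMF counts of the same library, and a log2 fold change of 2.33 (edgeR adjusted p 9.79e-08). Whether counting used strand was not stated, so reads of the pair cannot be told apart.

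PMAIP1 encodes NOXA, a short BH3-only protein that binds mainly MCL1 and promotes its breakdown. It had 94.1 and 113 CPM in siCBX3, against 29.7 and 44.6 CPM in siNC. The groups were well apart, although relative to their mean the siNC libraries differed more than for the other 9 members. The fold change was 2.78 (log2 1.48, SE 0.12, edgeR adjusted p 3.54e-10). With DESeq2 the SE was larger, 0.314 (DESeq2 adjusted p 1.54e-05). Without siNC replicate 1 the log2 fold change was 1.22, and without siNC replicate 2 it was 1.80. No other feature shares its exon bases. The gene lies at 59899948 to 59904306 on the plus strand of chromosome 18.

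The other 3 BH3-only members had smaller fold changes. BBC3 encodes PUMA, which binds all the pro-survival proteins, and had 3.69 and 3.38 CPM in siCBX3 against 2.15 and 2.78 CPM in siNC. These rest on few reads, 130 and 128 counts in siCBX3 against 81 and 117 in siNC. Its log2 fold change was 0.51 (SE 0.21, edgeR adjusted p 0.0425), a call that ended under 7 of 12 alternatives. Among these were leaving out siCBX3 replicate 1 (adjusted p 0.164), siCBX3 replicate 2 (0.063) or siNC replicate 1 (0.263). The microRNA feature MIR3190, with at most 9 counts, lies within BBC3 exons on the opposite strand.

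BID, which caspase-8 cuts to link death receptors to mitochondria, had 16.6 and 15.6 CPM in siCBX3, against 10.9 and 13.2 CPM in siNC. Its lower siCBX3 library was above its higher siNC library, and the log2 fold change was 0.42 (SE 0.12, edgeR adjusted p 0.00437). The call ended without siNC replicate 1 (adjusted p 0.0642) and on log2(RPKM + 1) values (limma adjusted p 0.11). BCL2L11 encodes BIM, which binds every pro-survival member and can activate BAX. It had 4.71 and 4.80 CPM in siCBX3, against 6.42 and 5.82 CPM in siNC, opposite in direction to the other 4 BH3-only genes. Its log2 fold change was -0.36 (95% interval -0.68 to -0.04, edgeR adjusted p 0.0567), so it was not called. It passed with library totals (adjusted p 0.0226), with upper-quartile factors (0.0319) and with the replicate block (0.0486).

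**Figure D2:**
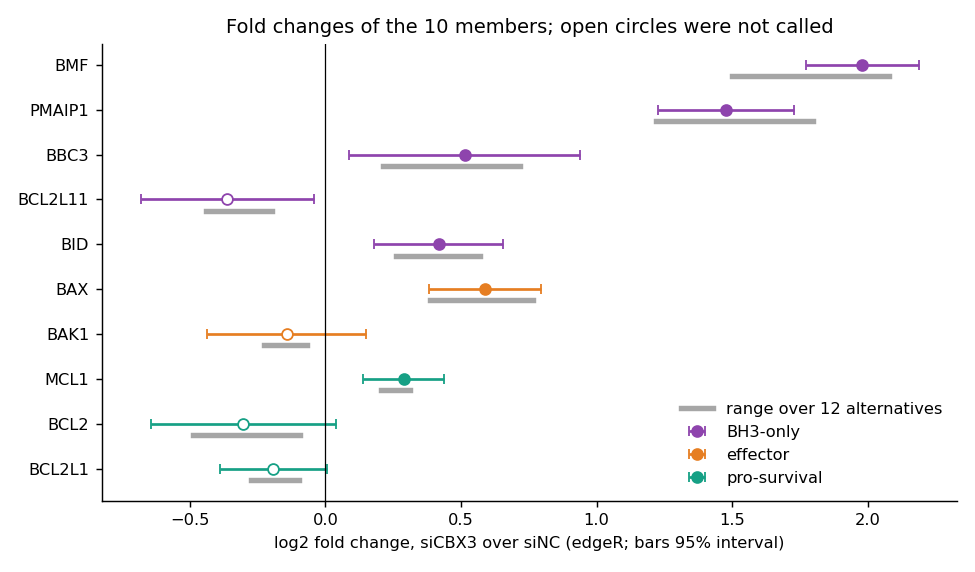
Log2 fold change of each gene, siCBX3 over siNC, with its 95% interval from the edgeR fit (coloured bars) and the range over 12 alternatives (grey bars); filled circles were called, open ones not. BMF at 1.98 and PMAIP1 at 1.48 stand apart from the other 8, which lie between -0.36 and 0.59.

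The 2 pore-forming effectors differed in their tests. BAX, which moves from the cytosol to mitochondria on activation, had 63.3 and 48.6 CPM in siCBX3, against 35.8 and 38.6 CPM in siNC. The siCBX3 libraries were both higher but spread widely. The fold change was 1.503 (log2 0.59, SE 0.10, edgeR adjusted p 2.84e-05). Without siCBX3 replicate 1 the log2 fold change was 0.39 (edgeR adjusted p 0.00384). BAK1, which encodes the effector resident on mitochondria, had 6.13 and 6.83 CPM in siCBX3, against 7.09 and 7.24 CPM in siNC. Its log2 fold change was -0.14 (95% interval -0.44 to 0.15, edgeR adjusted p 0.429), and none of the 12 alternatives called it. The difference between the changes of BAX and BAK1 was not tested. BAK1 shares 91 exon bases with GGNBP1 on the opposite strand, whose counts were at most 15.4% of those of BAK1.

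Among the pro-survival genes MCL1 was called higher, and BCL2 and BCL2L1 were not called. MCL1, whose protein turns over quickly, had 297 and 307 CPM in siCBX3, against 244 and 251 CPM in siNC. Within each group the libraries lay close together. The fold change was 1.22 (log2 0.29, SE 0.07, edgeR adjusted p 0.0018), and the call ended on log2(RPKM + 1) values (limma adjusted p 0.0509). MCL1 shares only 2 exon bases with ADAMTSL4-AS1.

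BCL2, the founding member, had 4.77 and 4.75 CPM in siCBX3, against 6.69 and 5.08 CPM in siNC. One siNC library was close to the siCBX3 pair, and the log2 fold change of -0.30 (95% interval -0.64 to 0.04, edgeR adjusted p 0.136) was not called. Without siNC replicate 2, the lower of that pair, it was -0.49 (edgeR adjusted p 0.0259), and without siNC replicate 1 it was -0.09 (edgeR adjusted p 0.743). BCL2L1 had 22.9 and 23.3 CPM in siCBX3, against 24.8 and 28.0 CPM in siNC. Its log2 fold change was -0.19 (95% interval -0.39 to 0.00477, edgeR adjusted p 0.1). It passed without siNC replicate 1 (adjusted p 0.0291), with library totals (0.0288) and with upper-quartile factors (0.0418). Without siNC replicate 2 the log2 fold change was -0.10 (edgeR adjusted p 0.494). BCL2L1 shares 1424 of its 3314 exon bases with ABALON on the opposite strand. ABALON had 618 and 693 counts in siCBX3 and 738 and 972 in siNC, which is 76.5% to 82.5% of the BCL2L1 counts, and its log2 fold change was -0.25 (edgeR adjusted p 0.0466). Reads of the pair cannot be told apart, and the long and short splice forms of BCL2L1, which act in opposite ways, are summed in 1 count.

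Per length, MCL1 was the most abundant member and BCL2 the least in both groups. These levels are the deposited RPKM, scaled by library totals. In siCBX3 the order of mean RPKM was MCL1 (67.2 ± 2.32, SD, n = 2), PMAIP1 (45.1 ± 6.28), BAX (21.0 ± 3.70), BMF (7.67 ± 0.701), BCL2L1 (6.78 ± 0.138), BID, BAK1, BBC3, BCL2L11 and BCL2. No neighbours in that order overlapped between their libraries. In siNC it was MCL1 (58.1 ± 2.64), PMAIP1 (17.1 ± 5.26), BAX (14.8 ± 1.14), BCL2L1 (8.18 ± 0.897), BAK1, BID, BMF (2.05 ± 0.0911), BCL2L11, BBC3 and BCL2. There PMAIP1 and BAX overlapped, and the nearest libraries of BCL2L11 and BBC3 both stood at 0.912 RPKM; the other neighbours were apart. BMF thus had rank 4 in siCBX3 and rank 7 in siNC. RPKM divides by all annotated exon bases, 11765 for BCL2, so a gene that uses few of them reads low.

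**Figure D3:**
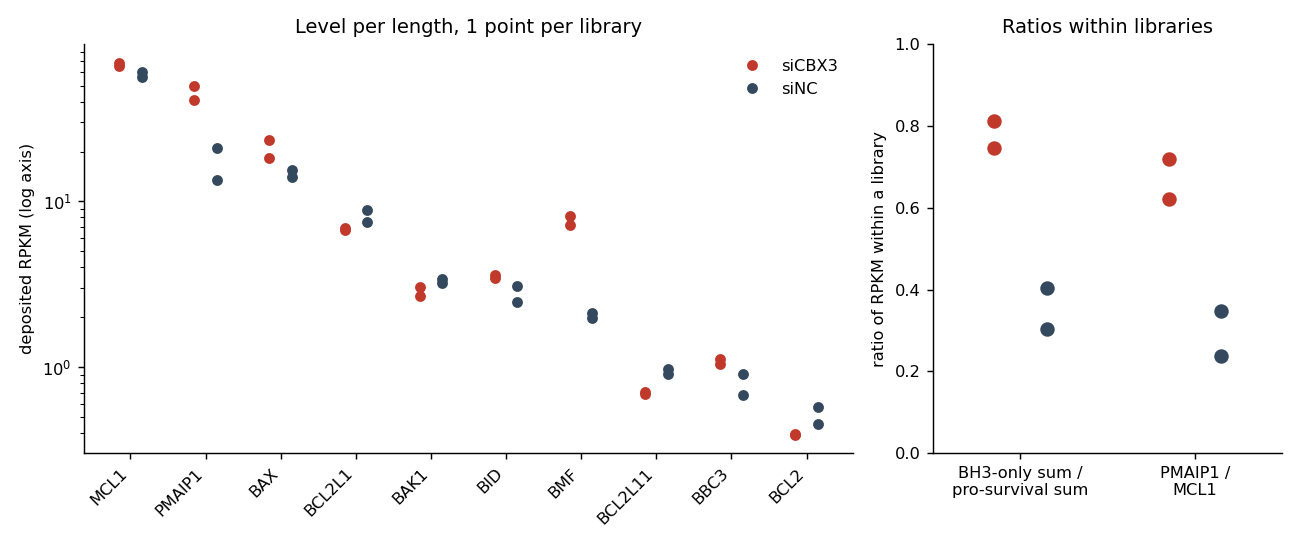
Left, deposited RPKM of each gene on a log axis, 1 point per library, siCBX3 left of siNC, in the order of the siNC means. Right, ratios of RPKM within each library: the BH3-only sum over the pro-survival sum was 0.746 and 0.813 in siCBX3 and 0.303 and 0.403 in siNC.

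Sums over roles were dominated by PMAIP1, BAX and MCL1. The 5 BH3-only genes summed to 54.2 and 61.9 RPKM in siCBX3, against 19.5 and 27.9 RPKM in siNC, and PMAIP1 made up 68.7% to 80.0% of that sum. The 3 pro-survival genes summed to 72.6 and 76.1 RPKM in siCBX3, against 64.4 and 69.3 RPKM in siNC, and MCL1 made up 86.6% to 90.4%. The 2 effectors summed to 26.3 and 21.4 RPKM in siCBX3, against 17.2 and 19.0 RPKM in siNC. The ratio of the BH3-only sum to the pro-survival sum, which library scaling does not touch, was 0.746 and 0.813 in siCBX3 and 0.303 and 0.403 in siNC. The ratio of PMAIP1 to its main partner MCL1 was 0.62 and 0.72 in siCBX3 and 0.238 and 0.348 in siNC. For both ratios the siCBX3 libraries were higher. These are ratios of RNA, given as a description without a test.

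Expression profiles most like those of BMF and PMAIP1 were sought among 12543 coding genes with a mean of at least 1 CPM. Likeness was the distance between log2 CPM values over the 4 libraries, each gene centred on its own mean. Nearest to BMF were DDAH2 (distance 0.0335), CLIP2 (0.0744) and TNFRSF21 (0.101), the last of which encodes a death receptor. Their log2 fold changes were 2.01, 1.91 and 1.99. Among the nearest to PMAIP1 were COLQ (0.0957) and RIBC1 (0.17), with log2 fold changes of 1.58 and 1.59. COLQ and RIBC1 stood below 1 CPM in siNC. Over 4 libraries in 2 groups, the distance compares little more than the fold change.

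The promoters of these 2 genes are shown because their fold changes were the largest of the 10. RefSeq promoters (GRCh38.p14, 250 bases before the start and 50 after) matched 9 of the 10 members by symbol, and no entry matched MCL1. The PMAIP1 promoter is chr18:59899746-59900045 on the plus strand, and that of the upstream BMF start is chr15:40108830-40109129 on the minus strand. Capitals mark GC boxes, GGGCGG on either strand.

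PMAIP1: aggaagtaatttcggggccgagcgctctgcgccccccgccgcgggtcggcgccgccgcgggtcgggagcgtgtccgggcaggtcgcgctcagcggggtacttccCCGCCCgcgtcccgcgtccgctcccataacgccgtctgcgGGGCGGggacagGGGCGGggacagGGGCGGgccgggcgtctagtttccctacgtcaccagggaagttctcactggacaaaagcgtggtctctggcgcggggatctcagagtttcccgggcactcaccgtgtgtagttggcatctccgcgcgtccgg
BMF: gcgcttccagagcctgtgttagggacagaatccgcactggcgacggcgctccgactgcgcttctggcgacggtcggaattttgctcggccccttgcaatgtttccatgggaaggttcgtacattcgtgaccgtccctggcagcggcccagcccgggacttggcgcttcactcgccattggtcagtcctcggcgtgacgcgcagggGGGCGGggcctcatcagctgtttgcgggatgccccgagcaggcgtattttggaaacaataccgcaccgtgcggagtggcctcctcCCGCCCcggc

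PMAIP1 held 4 GC boxes and BMF 2 in these windows. Of the 15 promoters of the 9 matched members, 10 held at least 1, against 45% of 35116 RefSeq promoters outside chromosome 8. BMF and BCL2L1 have 2 of these promoters each and BID has 5. BID windows overlap one another in part, so 1 site can count in more than 1 promoter. By gene, 7 of the 9 matched members held a GC box. The second annotated BMF start held none. The GC content was 71.3% for PMAIP1 and 65.0% for BMF, against a median of 58.7% over the same 35116 promoters. The letters TGTTTAC, read by FOXO factors, occurred on either strand in 1 of the 15, that of BCL2L11 (3.42% of the 35116). The AP-1 letters TGANTCA occurred in 1, that of BBC3 (7.71%), and TGACGTCA, the CRE, in none of the 15 (1.85%). The E-box CACGTG occurred in 4 of the 15, in BBC3, BAX and BID (7.26%), and CCAAT in 5 of the 15 (34.6%). A match is a string of letters, not a shown site, and the counts do not say which start was used.

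Relatives outside the 10 were described from a list of 14 genes, of which 13 were matched and 12 tested; BCL2L14 had at most 4 counts. Of these 12, 6 were higher and 2 lower, with a median log2 fold change of 0.12. That is 66.7% called, against 48.4% of all tested features. BCL2L2, which encodes the pro-survival BCL-w, had 132 ± 7.89 CPM in siCBX3 and 74.1 ± 0.793 CPM in siNC (SD, n = 2 each; log2 fold change 0.83, edgeR adjusted p 2.75e-09). BCL2L2 shares 813 exon bases with the readthrough BCL2L2-PABPN1, whose own log2 fold change was -0.07. The readthrough had 157% to 295% of the counts of BCL2L2, and in the shared bases their reads cannot be told apart. BECN1, an autophagy protein with a BH3 domain, changed by 0.75, BOK, a BAX-like effector, by 0.58, BCL2L12 by 0.56 and BCL2L13 by 0.54. BCL2L12 shares 33.1% of its exon bases with IRF3, which had 110% to 125% of the counts of BCL2L12 and changed by 0.70. The BH3-only genes HRK and BIK were lower and near the detection limit. HRK had 6 and 4 counts in siCBX3 against 31 and 52 in siNC (log2 fold change -2.89, SE 0.52, edgeR adjusted p 6.57e-05). BIK had 15 and 8 counts in siCBX3 against 29 and 37 in siNC (-1.38, SE 0.47, edgeR adjusted p 0.0177), and its call ended without siCBX3 replicate 2, without siNC replicate 2 and with DESeq2. The list then held 1 lower gene in each case. HRK and the other named relatives kept their calls under the alternatives that tested them. BOK shares 7.56% of its exon bases with BOK-AS1 on the opposite strand. BECN1 shares 12.4% with CNTD1 and 4.68% with PSME3, both opposite in strand. PSME3 had 117% to 256% of the counts of BECN1 and a log2 fold change of -0.30, and CNTD1 had 0.65.

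**Figure D4:**
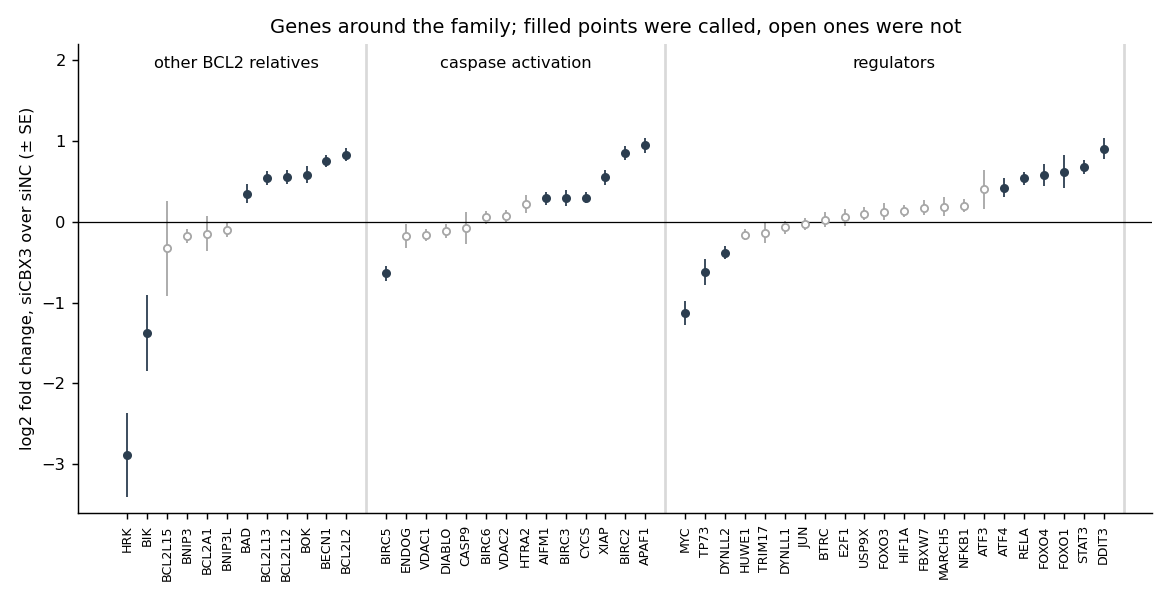
Log2 fold change, siCBX3 over siNC, with SE, of tested genes of 3 lists, sorted within each list; filled points were called. The lists run between HRK at -2.89 and BCL2L2 at 0.83, BIRC5 at -0.64 and APAF1 at 0.94, and MYC at -1.13 and DDIT3 at 0.90.

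Downstream of the mitochondrial pore, 7 of 16 genes were higher and 2 lower, with a median log2 fold change of 0.15. APAF1, the scaffold that cytochrome c turns into the apoptosome, had 38.4 ± 3.25 CPM in siCBX3 and 20.0 ± 0.85 CPM in siNC (SD, n = 2 each; log2 fold change 0.94, edgeR adjusted p 9.54e-09). APAF1 shares 9.48% of its exon bases with ANKS1B on the opposite strand. ANKS1B had 14.7% to 23.6% of the counts of APAF1 and a log2 fold change of 1.53. BIRC2 (0.85) and XIAP (0.55), of the inhibitor of apoptosis family, were higher too. BIRC5, which encodes survivin and is expressed mainly in dividing cells, was lower (-0.64). CASP9, the caspase that APAF1 activates, had -0.07 (edgeR adjusted p 0.783) and was not called.

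Of 24 known regulators of the family's genes or proteins 23 were tested, 7 higher and 3 lower, with a median of 0.13. Among the higher genes were STAT3 (0.68), a factor known to drive MCL1 in many cells, and DDIT3 (0.90), which encodes the stress factor CHOP. RELA, an NF-kB subunit, had 0.54. DDIT3 shares 28.0% of its exon bases with MARS on the opposite strand, and reads of that pair cannot be told apart. MARS had 621% to 1350% of the counts of DDIT3 and a log2 fold change of -0.14. MYC had 4.26 ± 0.47 CPM in siCBX3 and 9.33 ± 0.541 CPM in siNC (-1.13, edgeR adjusted p 8.06e-07). DYNLL2, the dynein light chain that holds BMF, had 38.9 ± 0.695 CPM in siCBX3 and 50.7 ± 0.822 CPM in siNC (-0.38, edgeR adjusted p 0.000406), opposite to BMF. FOXO3, a known activator of BCL2L11, had 0.13 (edgeR adjusted p 0.346) and was not called. MARCH5, HUWE1, FBXW7, USP9X and BTRC, which act on MCL1 protein, were not called, with log2 fold changes between -0.16 and 0.19. HUWE1, at the low end (edgeR adjusted p 0.0793), was called lower under 5 of 12 alternatives. In all 43.5% of the regulators and 56.2% of the downstream genes were called, against 48.4% of all tested features, so neither count stands out.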

How the data were processed

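Per the labels' protocols, stranded mRNA libraries of 143B cells were analysed, 2 siCBX3 and 2 siNC. Subread 1.5.1, featureCounts, STAR 2.5.3a, Trimmomatic 0.36 and the build GRCh38 are named in the submitters' processing notes. Their roles, the strand setting, whether molecular identifiers were used, and the annotation's release are not given in the sources used here. Values deposited by the authors are raw read counts per gene and RPKM. Recomputing RPKM from counts, exon lengths and totals gave a largest relative difference of 3.79e-07.

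Counts were fitted in R 4.3.3 with edgeR 4.0.16 (filterByExpr, minimum count 10 and total 15; TMM; quasi-likelihood test, group as the only term; 2 residual and 22 prior degrees of freedom), with Benjamini-Hochberg adjustment over all 20999 tested features and a threshold of 0.05. CPM are TMM-scaled. SE was taken as the size of the log2 fold change divided by the square root of F, and 95% intervals use 24 degrees of freedom. Log2 CPM used a prior count of 2. The alternatives, 12 in all, used other scaling, filters, DESeq2 1.42.0, limma 3.58.1 on log2(RPKM + 1), a replicate block and leaving out each library. The edgeR step was tested on simulated data. The libraries of a group differed beyond counting noise (chi-square per degree of freedom 6.99 in siCBX3, 12 in siNC). Intervals reflect only the variation seen here and reads counted.

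The members and the 3 further lists were chosen with earlier results of these data known, so no list is independent evidence of its direction. All members are named; of each list, the 6 called genes with the smallest adjusted p and any called gene changed by at least 1 on the log2 scale. FOXO3, CASP9, the MCL1 protein regulators, ATF4, JUN, HIF1A, BNIP3 and BCL2L14 are named outside that rule, after their values were seen. IRF3 is too, as are the other named features that share exon bases with list genes. MARCHF5 was matched as MARCH5. Some genes that the rule names are not reported here; they remain in the counts. Exon overlaps come from the coordinates in the count table. Coding sequences come from GENCODE 29 and promoters from RefSeq.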

Additional observations from a re-analysis of the deposited data

How the results depend on the processing

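BMF, PMAIP1 and BAX kept their direction and call under all 12 alternatives, and no member changed sign in any. Over these alternatives BMF ranged between 1.5 and 2.08 on the log2 scale and PMAIP1 between 1.22 and 1.80. The count of higher members was 6 in the main fit, and 5 with library totals, with upper-quartile factors and with DESeq2. It was 3 with limma on log2(RPKM + 1), which changes the scaling, the scale and the test together, and the cause was not tested. Leaving out siNC replicate 1 or either siCBX3 replicate also lowered the count of higher members. The count of lower members was 2 with library totals, 2 with upper-quartile factors and 1 with the replicate block, and 0 to 1 when 1 library was left out; library totals shift the median of all tested features by -0.08. The count of lower relatives was 1 under a filter of 50 mean counts, which removes HRK and BIK and at which BNIP3 was called, 1 with DESeq2, and 1 to 3 when 1 library was left out. Same-numbered libraries deviated together only weakly (correlation 0.0287), so the numbers were not taken as pairs; with the replicate block 10630 features were called, against 10173 without. Depth limits BBC3, BCL2L11, BCL2, HRK and BIK, which had at most 252 counts per library.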

Other observations

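The siNC libraries differed in several stress-linked genes, which were picked after their values were known. Whether these genes differed more than others was not tested. PMAIP1 had 29.7 CPM in siNC replicate 1 and 44.6 in replicate 2, the stress factor ATF4 143 and 223 CPM, DDIT3 7.38 and 9.80 CPM, and BBC3 2.15 and 2.78 CPM. Of other regulators, JUN had 363 CPM in siNC replicate 1 and 375 in replicate 2, and HIF1A 206 and 189 CPM. ATF4 had 247 and 244 CPM in siCBX3. Its log2 fold change was 0.42 (edgeR adjusted p 0.00442), with a range over the alternatives of 0.134 to 0.777, and its call ended without siNC replicate 1, with DESeq2 and with limma on log2(RPKM + 1).

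Members on the same chromosome did not share a direction in every case. PMAIP1 (log2 fold change 1.48) and BCL2 (-0.30, not called) lie 3219 kilobases apart on chromosome 18. BBC3 (0.51) and BAX (0.59) lie 1722 kilobases apart on chromosome 19.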
